A study of Mus musculus with 12 samples.

Results

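The proteasome genes of mouse kidney were examined as the protein-coding rows of the deposited count table whose symbol begins with Psm, a letter from a to g and a digit. The rule found 51 of 56748 genes. By textbook role they comprised 7 alpha ring genes, 4 beta ring genes without catalytic activity of their own, 3 constitutive and 3 inducible catalytic beta genes, 6 ATPase and 11 non-ATPase genes of the regulatory particle, 6 activator and inhibitor genes and 7 assembly chaperone genes. The remaining members were Psma8, an alpha subunit of the testis, Psmb11, a catalytic subunit of the thymus, and Psmc3ip and Psme3ip1, whose symbols fit the pattern although their products are partners of other proteins and not subunits. RNA had been sequenced in bulk from kidneys of wild-type C57BL/6 mice in 3 groups of 4 samples. All mice had received cisplatin, a platinum drug that injures the kidney tubule. The pFUS_UC group also received pulsed focused ultrasound and mesenchymal stem cells from umbilical cord, the UC group received the cells alone, and the AKI group (acute kidney injury) received neither; pFUS_UC and UC are called the cell-treated groups. No uninjured kidney and no ultrasound alone is among these groups. Neither the labels nor the design text give the cell dose, the species of the donated cells, the ultrasound setting, the time of sampling, age or sex.

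The proteasome degrades proteins that carry ubiquitin chains. Its core particle is a barrel of alpha rings, which gate the entry, and beta rings, which hold the protease sites; the regulatory particle on its end binds ubiquitin, unfolds the substrate with a ring of ATPases and feeds it into the barrel. Interferon induces partners that replace the constitutive catalytic subunits in the immunoproteasome, which shapes peptides for MHC class I, and when the proteasome is inhibited the transcription factor encoded by Nfe2l1 raises the genes of both particles together.

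Promoter sequences were matched for 43 of the 51 members, with 47 promoters of 300 bases each (250 before and 50 after the start; RefSeq, GRCm38.p6). The constitutive catalytic genes Psmb5 and Psmb6, the inducible genes Psmb8 and Psmb9 and the ATPase gene Psmc6 are shown. The first 2 and Psmc6 were higher in both cell-treated groups than in AKI, and the inducible pair was not called. Other members were higher in both groups too, while Psmb5, Psmb6 and Psmc6 all hold TGACNNNGC, found in 6 of the 47 member promoters. With trends in gene length and GC content removed, Psmc6 was called in neither comparison and Psmb5 only in UC. The promoters lie, in the order named, at chr14:54617946-54618245 (minus strand), chr11:70525107-70525406 (plus), chr17:34197945-34198244 (plus), chr17:34187281-34187580 (minus) and chr14:45329574-45329873 (plus). Each is written 5′ to 3′ along its gene, and capitals mark every match of the motifs listed after them on either strand.
Psmb5: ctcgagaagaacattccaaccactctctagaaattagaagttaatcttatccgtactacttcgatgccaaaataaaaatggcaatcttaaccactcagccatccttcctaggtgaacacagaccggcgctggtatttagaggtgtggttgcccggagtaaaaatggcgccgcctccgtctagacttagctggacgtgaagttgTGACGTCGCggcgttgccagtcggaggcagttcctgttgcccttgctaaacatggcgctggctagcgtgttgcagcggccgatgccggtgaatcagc
Psmb6: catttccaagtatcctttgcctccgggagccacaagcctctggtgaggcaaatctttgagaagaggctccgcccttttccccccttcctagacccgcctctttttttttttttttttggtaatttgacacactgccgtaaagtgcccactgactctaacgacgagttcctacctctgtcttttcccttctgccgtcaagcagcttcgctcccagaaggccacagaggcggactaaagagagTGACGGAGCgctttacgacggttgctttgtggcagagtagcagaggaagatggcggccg
Psmb8: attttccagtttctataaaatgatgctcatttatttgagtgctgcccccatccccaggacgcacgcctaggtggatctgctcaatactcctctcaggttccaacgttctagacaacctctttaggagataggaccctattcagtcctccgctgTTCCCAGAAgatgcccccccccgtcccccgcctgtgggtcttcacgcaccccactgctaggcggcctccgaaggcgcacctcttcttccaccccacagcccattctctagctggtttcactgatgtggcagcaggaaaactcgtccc
Psmb9: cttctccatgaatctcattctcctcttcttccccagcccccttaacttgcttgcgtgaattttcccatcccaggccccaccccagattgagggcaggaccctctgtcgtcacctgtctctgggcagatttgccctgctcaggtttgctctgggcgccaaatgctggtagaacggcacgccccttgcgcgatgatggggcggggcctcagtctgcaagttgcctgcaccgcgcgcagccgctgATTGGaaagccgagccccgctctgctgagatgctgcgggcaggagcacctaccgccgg
Psmc6: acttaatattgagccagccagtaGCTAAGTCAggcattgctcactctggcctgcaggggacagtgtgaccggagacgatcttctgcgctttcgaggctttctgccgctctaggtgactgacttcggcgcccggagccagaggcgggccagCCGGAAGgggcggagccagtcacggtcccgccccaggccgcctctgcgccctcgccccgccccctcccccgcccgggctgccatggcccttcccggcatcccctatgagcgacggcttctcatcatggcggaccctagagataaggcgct

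The capitals in Psmb5 and Psmb6 are the antioxidant response element core TGACNNNGC, which Psmc6 holds on its other strand ahead of an ETS core, CCGGAAG. The capitals in Psmb8 are the gamma-activated site TTCNNNGAA, and those in Psmb9 are the CCAAT box read on the other strand. The ETS core stood in 17 of the 47 member promoters (36.2%), in 8.86% of all 32851 promoters and in 11.6% of those of protein-coding genes. By class it was present in 4 of 6 ATPase and 6 of 9 non-ATPase promoters but in 1 of 8 alpha ring promoters, where the CCAAT box was present in 5 of 8. These are counts of promoters and not of genes: Psmc2 supplied more than 1 of the ATPase promoters and Psmc3 none. The 17 include promoters of Psmc3ip and Psme3ip1, which match by name only. The other motifs were about as common in member promoters as in all promoters: TGACNNNGC in 12.8% and 12.4%, CCAAT in 34.04% and 37.4%, and TTCNNNGAA in 6.38% and 8.30%. The interferon-stimulated response element (GAAA, any 2 bases, GAAA) stood in 5 member promoters (10.6%), against 3.44% of all promoters, and none of the 3 inducible catalytic promoters had a match in this window. Besides Psmb5, Psmb6 and Psmc6, TGACNNNGC stood in promoters of Psmd9, which rose, Psmd12, which was not called, and Psme4, which fell. Psma4, Psma7 and Psmg3 rose in both comparisons with AKI and had no match of it. Other members that rose are not shown. No matches overlapped in the 5 promoters shown. These matches describe letters and not bound sites.

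Libraries held 17.3 to 25.2 M (mega) counts, of which the members took 0.354 to 0.459%. The 3 counts that an observed 0 still allows correspond to 0.119 to 0.173 CPM (counts per 1 M of the library's counts); this limit covers counting error only. Levels by sample are given as CPM scaled by TMM, edgeR's library scaling, and levels of different genes as FPKM, which divides by gene length. Log2 fold changes carry the standard error (SE), and p-values come from edgeR's quasi-likelihood test with Benjamini-Hochberg adjustment over 16947 genes at a threshold of 0.05. The labels do not say that the samples are separate animals, so the p-values measure only the spread between these samples. Kidney tubule markers were abundant: 6 proximal tubule markers summed to 7027 to 7856 CPM in pFUS_UC, 4540 to 7601 CPM in UC and 6528 to 11515 CPM in AKI. Of these 6, 3 were lower in pFUS_UC than in AKI and 4 in UC than in AKI. The 3 thick limb markers summed to 1520 to 2665 CPM in pFUS_UC, 921 to 2665 CPM in UC and 3337 to 5412 CPM in AKI, with 2 called lower in pFUS_UC and 1 in UC. The 2 distal convoluted tubule markers summed to 851 to 1153 CPM in pFUS_UC, 188 to 710.4 CPM in UC and 184 to 379.8 CPM in AKI, and 2 were higher in pFUS_UC and 1 in UC than in AKI. Markers of other cells moved with the groups too. Of 6 endothelial, 6 fibroblast and 5 podocyte markers, 5, 5 and 5 were lower in pFUS_UC than in AKI, and 6, 6 and 5 in UC than in AKI. The endothelial sum was 118 to 168 CPM in pFUS_UC, 75.8 to 170.4 CPM in UC and 323 to 518 CPM in AKI, the fibroblast sum 113 to 145 CPM, 59.5 to 157 CPM and 254 to 583 CPM in the same order of groups, and the podocyte sum 179.5 to 280.2 CPM, 111 to 234 CPM and 626 to 969 CPM. None of these markers was under 0.2 CPM throughout, and the part of any of them in the results was not tested. In bulk tissue, fewer cells of a type and less RNA per cell cannot be told apart. Sample codes of the AKI libraries are of a kind unlike those of the 8 others. The labels do not say what the codes stand for, and any difference that goes with the code cannot be told apart from the effect of group.

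Of the 51 members, 49 passed the filter on low counts. Psma8 had 0 to 7 counts and Psmb11 0 or 1 count in every library, and neither was tested. In pFUS_UC against AKI, 21 of 49 members were higher (42.9%) and 5 were lower (10.2%), against 21.9% and 22.1% of all tested genes, 44.0% in either direction. In UC against AKI the counts were also 21 higher and 5 lower, against 24.1% and 24.3% of all genes, 48.4% in either direction. The members' median log2 fold change was 0.19 in pFUS_UC against AKI, where that of all genes was 0.02, and 0.26 in UC against AKI, where that of all genes was 0.03. Both comparisons share the AKI samples. The shares of all genes given here are also the background for the counts by class below. How many of all genes separate from AKI without overlap was not counted, so such separations below describe single genes only. Counts from mitochondrially encoded genes made up 2.87 to 7.12% in AKI, 7.38 to 15.3% in pFUS_UC and 8.57 to 18.6% in UC. Every cell-treated library lay above every AKI library in this share. With these genes left out of the fit, 23 members were called in pFUS_UC against AKI and 26 in UC against AKI. UC replicates 1 and 2 had the highest share, 18.6% in each. Without UC replicates 1 and 2, 15 members were called in UC against AKI instead of 26, and 5414 genes instead of 8210. In pFUS_UC against UC no member was called, as no gene of the table was (0% of 16947). Calls in the direction of the higher level were thus more frequent among members than in the table, and calls in the other direction less frequent, in each comparison with AKI; these are descriptions of the counts, without a test.

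**Figure D1:**
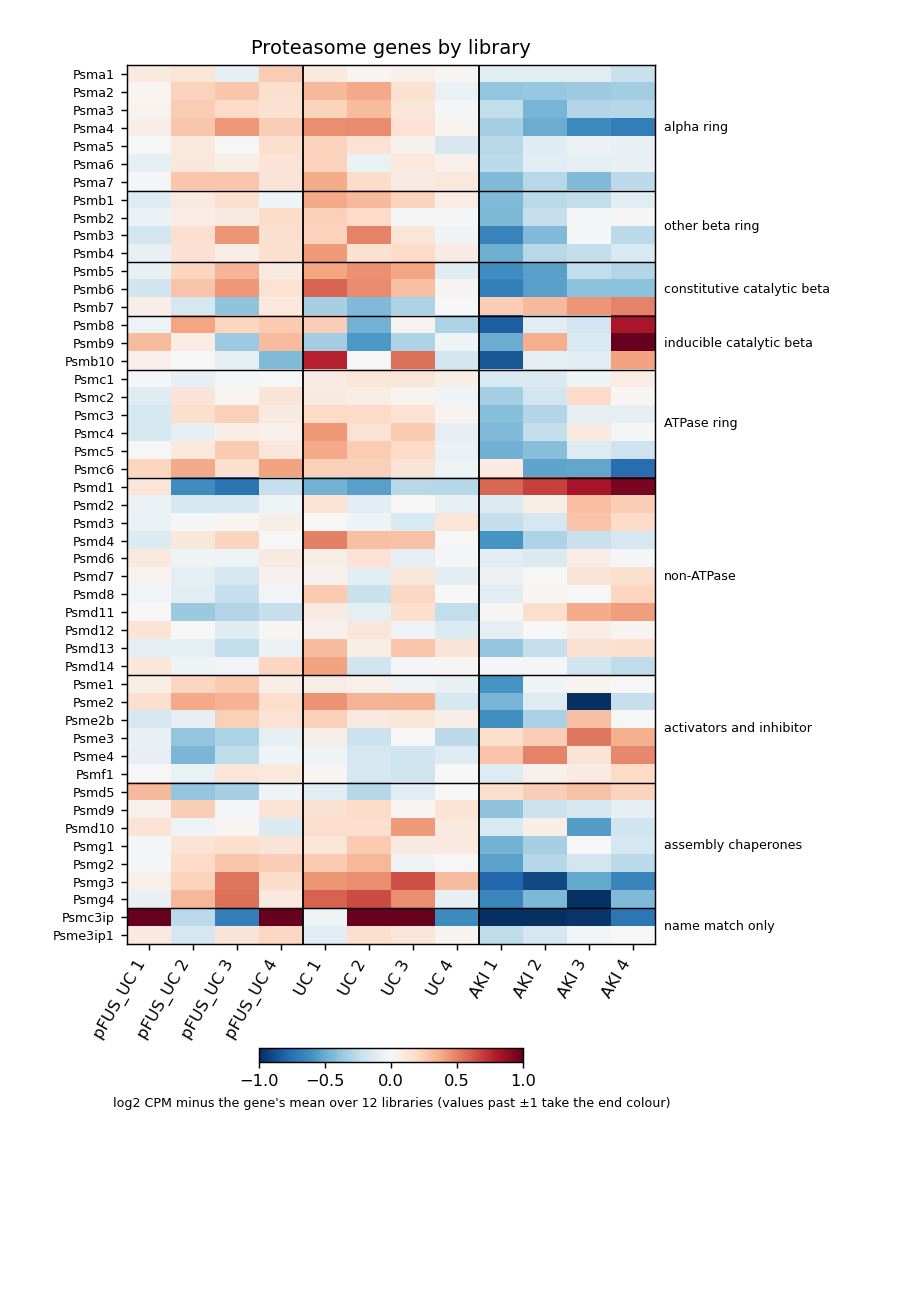
Level of each of the 49 tested proteasome genes in each library, as log2 CPM minus the gene's mean over the 12 libraries (colour), with libraries in columns (pFUS_UC, UC, AKI) and genes in rows by class. Alpha, beta and chaperone rows are mostly blue in the AKI columns, Psmb7, Psmd1, Psmd11, Psme3 and Psme4 are mostly red there, and the inducible beta rows differ mainly from library to library.

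Gene length moved with these changes. The median length of the members called higher was 2370 bases in pFUS_UC against AKI and 2300 bases in UC against AKI, and that of the members called lower was 6383 and 7230 bases. Spearman's rho between log2 fold change and length over the 49 members was -0.46 in pFUS_UC against AKI and -0.50 in UC against AKI; over all 16947 genes it was -0.33 and -0.32. The points are genes that share the same libraries. By library, rho between relative expression and length over protein-coding genes was -0.244 to 0.011 in pFUS_UC, -0.209 to -0.130 in UC and 0.157 to 0.377 in AKI. The test was therefore repeated with an offset per library that removes each library's trend with gene length and GC content. With these offsets 14 members were higher and 6 lower in pFUS_UC against AKI (21.3% and 17.2% of all genes), and 15 were higher and 5 lower in UC against AKI (24.2% and 20.3%). The members' medians were then 0.07 and 0.11, and those of all genes 0.06 and 0.06. Because the trend differs by group, length and group are not separate in these libraries. Both values are given where the length and GC offsets, called the offsets below, end a member's call. A length offset alone also ended calls that those offsets kept. These were Psme2 in both comparisons, Psmb5 and Psme4 in UC against AKI, and Psmc3 and Psmd11 in pFUS_UC against AKI.

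**Figure D2:**
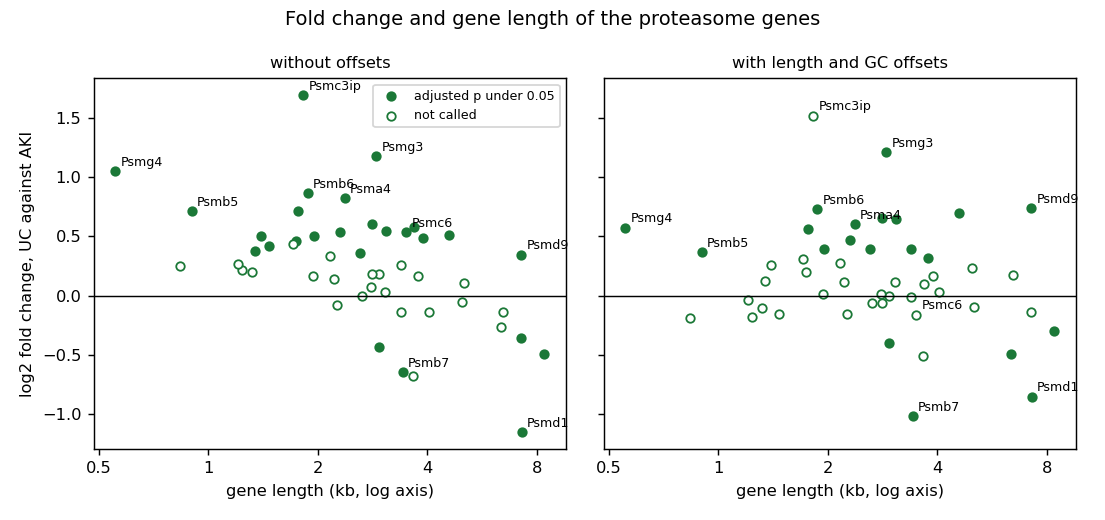
Log2 fold change in UC against AKI (vertical) against gene length in kb (horizontal, log axis) for the 49 tested members, without offsets on the left and with length and GC offsets on the right; filled points had an adjusted p under 0.05. On the left the short genes lie high and the long genes low, and on the right Psmg3 and Psmb6 stay high and Psmb7 and Psmd1 stay low.

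The alpha ring forms the gate of the core particle. Of its 7 genes, 5 rose in pFUS_UC against AKI (median log2 fold change 0.48) and 4 in UC against AKI (median 0.49), and none fell. With length and GC offsets 2 rose in each comparison, and the medians were 0.08 and 0.09. Psma4 and Psma2 had the smallest p in this class. Psma4 stood at 139.7, 162, 181 and 158 CPM in pFUS_UC, 184, 185, 148 and 137 CPM in UC and 106, 94.8, 85.9 and 82.7 CPM in AKI, in replicate order. Every cell-treated library lay above every AKI library. The log2 fold change of Psma4 was 0.79 ± 0.13 in pFUS_UC against AKI (SE; edgeR adjusted p = 0.000456) and 0.82 ± 0.13 in UC against AKI (edgeR adjusted p = 0.000264).

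Psma2 stood at 101, 117, 121 and 112 CPM in pFUS_UC, 125, 129.8, 111 and 95.5 CPM in UC and 75.9, 76.8, 77.7 and 78.3 CPM in AKI. The AKI libraries were tightly grouped below all others. Psma2 rose by 0.55 ± 0.11 log2 units in pFUS_UC against AKI (edgeR adjusted p = 0.00132) and by 0.58 ± 0.11 in UC against AKI (edgeR adjusted p = 0.000694). With length and GC offsets these values were 0.08 (adjusted p = 0.633) and 0.09 (adjusted p = 0.537). Psma3 and Psma7 also rose in both comparisons, by 0.48 and 0.53 in pFUS_UC and by 0.49 and 0.54 in UC; the offsets left the call of Psma7 (0.66 and 0.65) and ended that of Psma3 (0.16 and 0.16, adjusted p = 0.227 and 0.208). Psma1 was called in pFUS_UC against AKI (0.24, edgeR adjusted p = 0.0453) and had 0.18 in UC against AKI (edgeR adjusted p = 0.108). Its call was lost without any 1 AKI replicate and without pFUS_UC replicate 1, 2 or 4 (0.18 to 0.25, adjusted p = 0.0608 to 0.147), and with the offsets (0.04, adjusted p = 0.738). Psma5 and Psma6 had values of 0.20 and 0.19 in pFUS_UC and of 0.20 and 0.21 in UC and were not called.

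Among the beta ring genes without a protease site, 3 of 4 rose in each comparison with AKI; with the offsets 1 rose in pFUS_UC and 3 in UC. Psmb4, which had the highest mean FPKM over all 12 libraries among the members, stood at 201, 235, 221 and 236 CPM in pFUS_UC, 285, 235, 242 and 224 CPM in UC and 151, 174, 179 and 191 CPM in AKI. No AKI library reached the lowest of the others. Its log2 fold change was 0.36 ± 0.11 in pFUS_UC against AKI (edgeR adjusted p = 0.0181) and 0.50 ± 0.11 in UC against AKI (edgeR adjusted p = 0.00244). The pFUS_UC call was lost without pFUS_UC replicate 2 (0.33, adjusted p = 0.0532) and with the offsets (0.25, adjusted p = 0.0547).

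Psmb1 stood at 138, 160.1, 168 and 146 CPM in pFUS_UC, 196, 189, 176 and 159 CPM in UC and 111, 125, 127 and 140.0 CPM in AKI. The UC libraries lay above all AKI libraries, while pFUS_UC replicate 1 lay within the AKI range. Psmb1 rose by 0.28 ± 0.11 in pFUS_UC against AKI (edgeR adjusted p = 0.0467) and by 0.52 ± 0.11 in UC against AKI (edgeR adjusted p = 0.00177). For Psmb1 the pFUS_UC call ended when any 1 of AKI replicates 1 to 3 or of pFUS_UC replicates 2 to 4 was left out (0.22 to 0.31, adjusted p = 0.0635 to 0.128).

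Psmb3 stood at 112, 144, 174 and 143 CPM in pFUS_UC, 150.3, 181, 139 and 125 CPM in UC and 80.6, 94.7, 127 and 107 CPM in AKI. AKI replicate 3 overlapped both other groups. The log2 fold change of Psmb3 was 0.49 ± 0.17 in pFUS_UC against AKI (edgeR adjusted p = 0.0289) and 0.54 ± 0.17 in UC against AKI (edgeR adjusted p = 0.0158). The pFUS_UC call ended when any 1 of AKI replicates 1, 2 and 4 or of pFUS_UC replicates 2 to 4 was left out (0.38 to 0.50, adjusted p = 0.0534 to 0.0975) and with the offsets (0.41, adjusted p = 0.0552), and the UC call without UC replicate 2 (0.43, adjusted p = 0.0567). Psmb2 had 0.24 and 0.27 and was not called in either.

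The constitutive catalytic subunits did not move as 1 group: Psmb6 and Psmb5 rose and Psmb7 fell in both comparisons. Psmb6 encodes the subunit that cleaves after acidic residues (chr11:70416193-70418684, plus strand; here and for the other genes GRCm39, as the deposited table gives them). It stood at 164, 229.6, 254 and 208 CPM in pFUS_UC, 281, 262, 232 and 192 CPM in UC and 117, 129, 142 and 142 CPM in AKI. The 8 cell-treated libraries all lay above the AKI libraries. Psmb6 rose by 0.69 ± 0.15 in pFUS_UC against AKI (edgeR adjusted p = 0.00268) and by 0.87 ± 0.15 in UC against AKI (edgeR adjusted p = 0.000486), and with the offsets by 0.55 and 0.73.

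Psmb5 encodes the subunit that cleaves after hydrophobic residues, the main target of bortezomib, and lies at chr14:54851576-54855479 on the minus strand. It stood at 76.1, 93.1, 101 and 85.1 CPM in pFUS_UC, 105, 110.0, 105 and 73.8 CPM in UC and 52.1, 55.0, 67.4 and 65.4 CPM in AKI. UC replicate 4 lay apart from its group but still above the AKI libraries. Psmb5 had a log2 fold change of 0.57 ± 0.14 in pFUS_UC against AKI (edgeR adjusted p = 0.00612) and of 0.72 ± 0.14 in UC against AKI (edgeR adjusted p = 0.00121). The offsets ended the pFUS_UC call (0.22, adjusted p = 0.129) and left the UC call (0.37, adjusted p = 0.0176). A length offset alone ended the UC call too (edgeR adjusted p = 0.134).

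Psmb7 encodes the subunit that cleaves after basic residues (chr2:38478048-38534099, minus strand). It stood at 51.5, 43.7, 37.2 and 52.9 CPM in pFUS_UC, 39.1, 36.2, 39.5 and 49.0 CPM in UC and 58.6, 61.5, 67.0 and 69.4 CPM in AKI. Here every AKI library lay above every cell-treated library. Psmb7 fell by 0.47 ± 0.13 in pFUS_UC against AKI (edgeR adjusted p = 0.0105) and by 0.65 ± 0.13 in UC against AKI (edgeR adjusted p = 0.00131); with the offsets the log2 fold changes were -0.85 and -1.02. Per length, Psmb7 had 12.4 ± 4.01 FPKM for every 100 FPKM of Psmb6 in pFUS_UC, 9.61 ± 3.002 in UC and 26.5 ± 0.713 in AKI (SD, n = 4 each). Psmb5 had 87.3 ± 6.36, 84.9 ± 7.74 and 93.9 ± 4.44 FPKM per 100 FPKM of Psmb6 in pFUS_UC, UC and AKI, ranges that overlap. The Psmb7 locus overlaps Nek6 on the opposite strand (5891 counts over all libraries, against 12243 for Psmb7), and no source at hand states whether counting used strand.

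**Figure D3:**
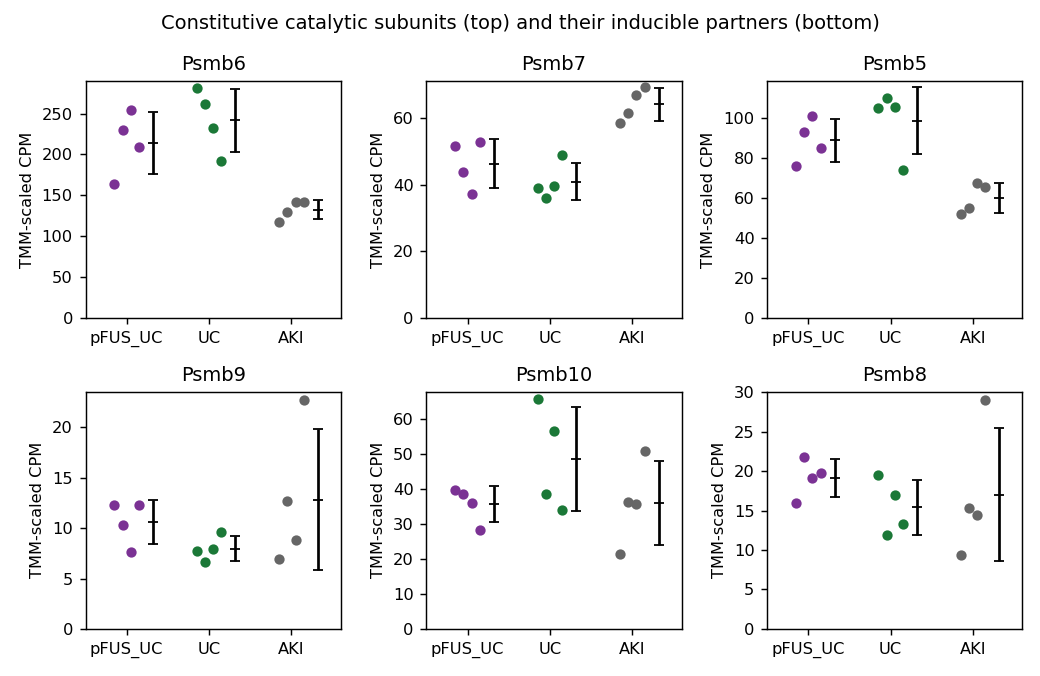
CPM scaled by TMM in each library (points) with the mean ± SD of each group (bars; n = 4) for Psmb6, Psmb7 and Psmb5 in the top row and their inducible partners Psmb9, Psmb10 and Psmb8 below. Psmb6 and Psmb5 are higher and Psmb7 lower in the pFUS_UC and UC libraries than in the AKI libraries without overlap, and the inducible genes overlap in all groups.

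None of the 3 inducible catalytic genes was called in any comparison, and each varied widely among the AKI libraries. Psmb8, the inducible partner of Psmb5, lies at chr17:34416695-34420428 beside Psmb9 at chr17:34400961-34406738, in the MHC region. Psmb8 stood at 16.0, 21.8, 19.1 and 19.8 CPM in pFUS_UC, 19.6, 11.9, 17.0 and 13.3 CPM in UC and 9.33, 15.3, 14.4 and 29.04 CPM in AKI. AKI held both its lowest and its highest library. Psmb8 had a log2 fold change of 0.17 ± 0.27 in pFUS_UC against AKI (edgeR adjusted p = 0.636) and -0.14 ± 0.28 in UC against AKI (edgeR adjusted p = 0.697).

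Psmb9, the partner of Psmb6, stood at 12.3, 10.4, 7.66 and 12.3 CPM in pFUS_UC, 7.72, 6.63, 7.97 and 9.57 CPM in UC and 6.98, 12.7, 8.87 and 22.7 CPM in AKI. AKI replicate 4 was again the highest of all. Its values were -0.26 ± 0.30 in pFUS_UC against AKI (edgeR adjusted p = 0.503) and -0.68 ± 0.31 in UC against AKI (edgeR adjusted p = 0.0827). Psmb9 overlaps Tap1 on the opposite strand, which had 5200 counts over all libraries against 2507 for Psmb9.

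Psmb10, the partner of Psmb7, stood at 39.9, 38.6, 36.1 and 28.4 CPM in pFUS_UC, 65.7, 38.7, 56.5 and 33.9 CPM in UC and 21.4, 36.3, 35.6 and 50.8 CPM in AKI. Its UC values fell into a high and a low pair, and all groups overlapped. The log2 fold change of Psmb10 was -0.01 ± 0.25 in pFUS_UC against AKI (edgeR adjusted p = 0.977) and 0.44 ± 0.25 in UC against AKI (edgeR adjusted p = 0.16). Summed per length, the inducible genes had 13.2 ± 2.55 FPKM per 100 FPKM of the constitutive catalytic genes in pFUS_UC, 14.05 ± 2.91 in UC and 18.7 ± 5.93 in AKI (SD, n = 4 each), with overlapping ranges. The single pairs differed. Psmb9 per 100 FPKM of Psmb6 was 1.54 to 3.83 in pFUS_UC, 1.30 to 2.54 in UC and 3.04 to 8.17 in AKI, without overlap between UC and AKI. In the same order, Psmb8 per 100 of Psmb5 was 5.03 to 6.22, 2.88 to 4.96 and 4.77 to 11.8. Psmb10 per 100 of Psmb7 was 108 to 194, 139 to 337 and 73.1 to 147. The constitutive partners were themselves called. The 7 leukocyte markers, cells that use the immunoproteasome, summed to 41.9 to 49.1 CPM in pFUS_UC, 15.9 to 43.7 CPM in UC and 21.3 to 55.4 CPM in AKI; their part in these values was not tested.

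The ATPase ring unfolds the substrate. Of its 6 genes, 3 rose in each comparison with AKI and none fell; with the offsets 1 rose in each. Psmc5 stood at 129, 139, 155 and 139.5 CPM in pFUS_UC, 168, 154, 148 and 123 CPM in UC and 92.4, 96.3, 118 and 112 CPM in AKI. All cell-treated libraries lay above the AKI libraries. It rose by 0.42 ± 0.12 in pFUS_UC against AKI (edgeR adjusted p = 0.0112) and by 0.50 ± 0.12 in UC against AKI (edgeR adjusted p = 0.00371). With the offsets neither was called (0.17, adjusted p = 0.2, and 0.26, adjusted p = 0.0576).

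Psmc6 stood at 62.7, 70.3, 60.9 and 71.7 CPM in pFUS_UC, 64.1, 63.9, 59.3 and 52.4 CPM in UC and 57.5, 37.7, 37.8 and 32.04 CPM in AKI. AKI replicate 1 was well above the other AKI libraries and overlapped UC. The log2 fold change of Psmc6 was 0.69 ± 0.15 in pFUS_UC against AKI (edgeR adjusted p = 0.0034) and 0.54 ± 0.15 in UC against AKI (edgeR adjusted p = 0.0117), but 0.02 (adjusted p = 0.885) and -0.16 (adjusted p = 0.148) with the offsets. Psmc3 rose by 0.31 and 0.36, and with the offsets by 0.36 and 0.40. A length offset alone ended its pFUS_UC call. In pFUS_UC its call ended when any 1 of AKI replicates 1, 2 and 4 or of pFUS_UC replicates 2 to 4 was left out (0.24 to 0.35, adjusted p = 0.0514 to 0.125) and in UC when AKI replicate 1 or 2 or UC replicate 1 was left out (0.30 to 0.34, adjusted p = 0.0504 to 0.0577). Psmc1, Psmc2 and Psmc4 had 0.04, 0.10 and 0.11 in pFUS_UC against AKI and 0.16, 0.10 and 0.34 in UC against AKI and were not called.

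Most of the 11 non-ATPase genes of the regulatory particle were not called: 1 rose and 2 fell in pFUS_UC against AKI, and 1 rose and 1 fell in UC against AKI. Psmd1, which encodes a large scaffold subunit of the base, had the lowest fold change of all members. It stood at 46.4, 27.7, 25.7 and 36.3 CPM in pFUS_UC, 30.7, 29.2, 35.2 and 35.03 CPM in UC and 63.3, 68.2, 75.3 and 82.4 CPM in AKI. The AKI libraries were higher than all others without overlap. Psmd1 fell by 1.09 ± 0.17 in pFUS_UC against AKI (edgeR adjusted p = 0.000323) and by 1.15 ± 0.17 in UC against AKI (edgeR adjusted p = 0.000161); with the offsets the log2 fold changes were -0.82 and -0.85.

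Psmd4, a receptor for ubiquitin chains, stood at 117, 139, 149.7 and 128 CPM in pFUS_UC, 182, 159, 158 and 129 CPM in UC and 85.3, 104, 110.0 and 114 CPM in AKI. The groups did not overlap with AKI. It rose by 0.37 ± 0.13 in pFUS_UC against AKI (edgeR adjusted p = 0.0325) and by 0.60 ± 0.13 in UC against AKI (edgeR adjusted p = 0.00207). Leaving out AKI replicate 1 or 2 or pFUS_UC replicate 2 or 3 ended the pFUS_UC call of Psmd4 (0.28 to 0.37, adjusted p = 0.0681 to 0.0963).

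Psmd11, a lid subunit that braces the regulatory particle against the core, stood at 60.2, 46.7, 49.3 and 51.3 CPM in pFUS_UC, 63.8, 56.6, 67.7 and 51.0 CPM in UC and 60.9, 68.2, 78.1 and 80.4 CPM in AKI. The pFUS_UC libraries lay below all AKI libraries, AKI replicate 1 only narrowly above pFUS_UC replicate 1. Psmd11 fell by 0.47 ± 0.12 in pFUS_UC against AKI (edgeR adjusted p = 0.00829) and had -0.27 ± 0.12 in UC against AKI (edgeR adjusted p = 0.091); with the offsets the values were -0.70 (adjusted p = 0.00482) and -0.49 (adjusted p = 0.0248). A length offset alone ended the pFUS_UC call of Psmd11 (edgeR adjusted p = 0.0953). The difference between the cell-treated groups for Psmd11 was -0.20 ± 0.12 (edgeR adjusted p = 0.704). The 8 other non-ATPase genes, among them Psmd14, the deubiquitinase of the lid, and Psmd2, the second large scaffold of the base, had -0.23 to 0.18 in pFUS_UC against AKI and -0.14 to 0.26 in UC against AKI.

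**Figure D4:**
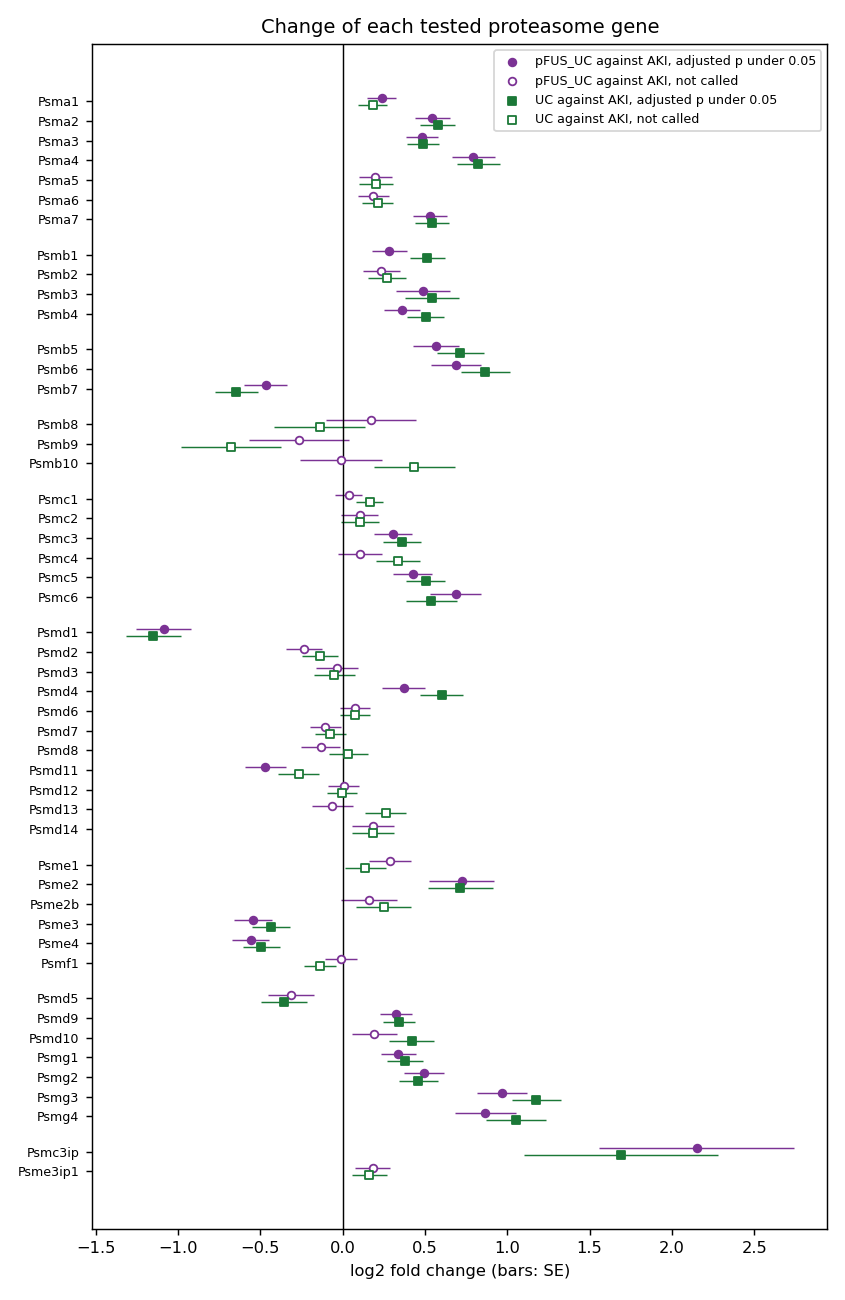
Log2 fold change of each tested member against AKI with its SE (bars), for pFUS_UC (circles) and UC (squares), in rows by class from alpha ring to name matches; filled symbols had an adjusted p under 0.05. Core and chaperone genes lie mostly right of 0, Psmb7, Psmd1, Psmd11, Psme3, Psme4 and Psmd5 lie left of it, and the other non-ATPase genes apart from Psmd4 lie near it.

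Alternative caps of the core particle moved in both directions. Psme1 and Psme2 form an activator that interferon raises, and the genes lie next to each other at chr14:55815580-55818986 and chr14:55824898-55828570. Psme2 stood at 50.3, 58.3, 57.1 and 50.6 CPM in pFUS_UC, 61.4, 56.7, 57.1 and 39.9 CPM in UC and 32.6, 41.0, 19.4 and 38.2 CPM in AKI. AKI replicate 3 was the lowest of all, and UC replicate 4 lay within the AKI range. Psme2 rose by 0.72 ± 0.20 in each comparison with AKI (edgeR adjusted p = 0.01 in pFUS_UC and 0.00941 in UC). A length offset alone ended the call of Psme2 in both comparisons (edgeR adjusted p = 0.0592 in pFUS_UC against AKI). Psme2b, a near-identical gene whose reads may be split with Psme2, had 0.16 and 0.25 and was not called.

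Psme1 stood at 92.2, 103, 106 and 92.7 CPM in pFUS_UC, 92.9, 91.6, 86.0 and 83.9 CPM in UC and 58.4, 85.8, 89.8 and 88.0 CPM in AKI. AKI replicate 1 was far below the rest, and the pFUS_UC values all lay above AKI. Its log2 fold change was 0.29 ± 0.13 in pFUS_UC against AKI (edgeR adjusted p = 0.0793) and 0.14 ± 0.13 in UC against AKI (edgeR adjusted p = 0.383), and with the offsets 0.28 (adjusted p = 0.0401) and 0.11 (adjusted p = 0.37). Per 100 FPKM of Psme1, Psme2 had 67.7 to 71.2 FPKM in pFUS_UC, 59.6 to 83.1 FPKM in UC and 27.0 to 69.8 FPKM in AKI.

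Psme3, which forms a nuclear activator, stood at 71.8, 57.5, 60.8 and 70.9 CPM in pFUS_UC, 78.6, 65.0, 75.1 and 62.9 CPM in UC and 85.3, 89.5, 109 and 96.5 CPM in AKI. All AKI libraries lay above the others. Psme3 fell by 0.54 ± 0.12 in pFUS_UC against AKI (edgeR adjusted p = 0.00243) and by 0.43 ± 0.12 in UC against AKI (edgeR adjusted p = 0.00773).

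Psme4, a single large activator, stood at 78.7, 60.7, 69.8 and 81.0 CPM in pFUS_UC, 80.7, 73.7, 72.7 and 76.3 CPM in UC and 102, 118, 91.7 and 116 CPM in AKI. These groups too did not overlap with AKI. It fell by 0.56 ± 0.11 in pFUS_UC against AKI (edgeR adjusted p = 0.0018) and by 0.49 ± 0.11 in UC against AKI (edgeR adjusted p = 0.00317). A length offset alone ended the UC call of Psme4 (edgeR adjusted p = 0.128) and left its pFUS_UC call. Psmf1, an inhibitor of the core in vitro, stood at 42.9, 41.1, 46.6 and 46.1 CPM in pFUS_UC, 43.5, 38.3, 37.3 and 43.0 CPM in UC and 39.2, 44.3, 45.3 and 49.3 CPM in AKI. Its groups overlapped, and its log2 fold changes were -0.01 ± 0.10 (edgeR adjusted p = 0.933) and -0.14 ± 0.10 (edgeR adjusted p = 0.265); with the offsets that of pFUS_UC was 0.29 (adjusted p = 0.0252).

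Assembly chaperones build the rings and leave the finished particle. Of 7 genes, 5 rose and none fell in pFUS_UC against AKI, and 6 rose and 1 fell in UC against AKI. With the offsets 2 rose and 1 fell in pFUS_UC against AKI, and 3 rose and none fell in UC against AKI. Psmg3 and Psmg4 act together on the alpha ring. Psmg3 stood at 10.03, 11.3, 14.04 and 11.025 CPM in pFUS_UC, 13.1, 13.4, 15.1 and 12.03 CPM in UC and 5.63, 5.18, 6.78 and 6.12 CPM in AKI. The cell-treated libraries lay well above all AKI libraries. It rose by 0.97 ± 0.15 in pFUS_UC against AKI (edgeR adjusted p = 0.000345) and by 1.18 ± 0.15 in UC against AKI (edgeR adjusted p = 7.76e-05), and with the offsets by 1.01 and 1.21.

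Psmg4 stood at 24.1, 31.97, 37.1 and 27.2 CPM in pFUS_UC, 38.1, 39.9, 34.9 and 24.0 CPM in UC and 16.1, 18.5, 12.8 and 18.6 CPM in AKI. No library of AKI reached the others. Its log2 fold change was 0.87 ± 0.18 in pFUS_UC against AKI (edgeR adjusted p = 0.00226) and 1.05 ± 0.18 in UC against AKI (edgeR adjusted p = 0.000509); it is the shortest member with 555 bases, and with the offsets the values were 0.40 (adjusted p = 0.0512) and 0.57 (adjusted p = 0.00871).

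Psmg1 and Psmg2, the other alpha ring pair, rose by 0.34 and 0.49 in pFUS_UC and by 0.38 and 0.46 in UC, and none of these calls held with the offsets (0.07 and 0.21 in pFUS_UC, 0.12 and 0.20 in UC). The pFUS_UC call of Psmg1 also ended when AKI replicate 1 or 2 or pFUS_UC replicate 2 or 3 was left out (0.26 to 0.33, adjusted p = 0.056 to 0.0697). The chaperones of the ATPase base differed. Psmd9 rose by 0.32 and 0.34, without pFUS_UC replicate 2 by 0.27 (adjusted p = 0.0596), and with the offsets by 0.71 and 0.74. It overlaps Hpd on the opposite strand, a gene with 151893 counts over all libraries against 9488 for Psmd9, so its value is uncertain. Psmd10 had 0.19 in pFUS_UC against AKI (edgeR adjusted p = 0.271) and 0.42 in UC against AKI (edgeR adjusted p = 0.0215), and with the offsets -0.41 (adjusted p = 0.0301) and -0.15 (adjusted p = 0.375). The UC call of Psmd10 was lost without AKI replicate 3 or UC replicate 3 (0.31 and 0.34, adjusted p = 0.0625 and 0.0674). Psmd5 had -0.31 in pFUS_UC against AKI (edgeR adjusted p = 0.083) and -0.36 in UC against AKI (edgeR adjusted p = 0.0494), a call lost without any 1 AKI replicate and without UC replicate 1, 2 or 3 (-0.38 to -0.31, adjusted p = 0.0587 to 0.124) and with the offsets (-0.14, adjusted p = 0.385).

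Of the genes that match by name only, Psmc3ip, a meiotic recombination factor, had 13.0, 4.41, 3.30 and 25.0 CPM in pFUS_UC, 5.17, 13.0, 11.67 and 3.42 CPM in UC and 2.02, 2.31, 2.72 and 3.23 CPM in AKI. It had the largest log2 fold changes of all members, 2.15 (edgeR adjusted p = 0.0104) and 1.69 (edgeR adjusted p = 0.0294), with wide spread among the cell-treated libraries. Without pFUS_UC replicate 4 the pFUS_UC value was 1.43 (adjusted p = 0.0432). The UC call of Psmc3ip was lost without AKI replicate 1, 2 or 3 or UC replicate 2 or 3 (1.40 to 1.72, adjusted p = 0.0581 to 0.0853) and with the offsets (1.52, adjusted p = 0.0519). It overlaps Mlx on the opposite strand (9382 counts, against 1803). Psme3ip1 had 0.18 and 0.16 and was not called, but with the offsets it was called higher in both comparisons with AKI.

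By particle, 10 of the 14 constitutive core genes rose and 1 fell in pFUS_UC against AKI (median 0.42), and 9 rose and 1 fell in UC against AKI (median 0.51). Of the 17 genes of the regulatory particle, 4 rose and 2 fell in pFUS_UC (median 0.04), and 4 rose and 1 fell in UC (median 0.10). As shares, 71.4% and 64.3% of the core genes rose, and 23.5% of the regulatory genes in each comparison. Of all genes 21.9% rose in pFUS_UC against AKI and 24.1% in UC against AKI, so the regulatory share was near this background. With the offsets the core medians were 0.19 and 0.27, and the regulatory medians were -0.03 and 0.02. Of the 14 core genes, 4 and 7 were then higher and 1 was lower in each comparison. With the offsets 21.3% and 24.2% of all genes were higher, and 17.2% and 20.3% were lower. The FPKM sums that follow are without the offsets and still hold each library's trend with length. The core genes summed to 781 ± 69.6 FPKM in pFUS_UC, 833 ± 89.1 FPKM in UC and 586 ± 49.5 FPKM in AKI (SD, n = 4 each). The lowest pFUS_UC and UC sums, 681 and 721 FPKM, exceeded the highest AKI sum, 626 FPKM. The ATPase sum was 329 ± 22.1 FPKM in pFUS_UC, 351 ± 28.9 FPKM in UC and 277 ± 30.5 FPKM in AKI, and the non-ATPase sum 302 ± 8.10, 326 ± 21.2 and 317 ± 37.9 FPKM in the same order of groups. The chaperones summed to 125 ± 11.9 FPKM in pFUS_UC, 136 ± 16.0 FPKM in UC and 87.3 ± 6.53 FPKM in AKI, again with no overlap between AKI and the others. Psmg4, the shortest member, supplied more of the chaperone sum than any other gene. Its means were 54.04 FPKM in pFUS_UC, 61.7 FPKM in UC and 29.99 FPKM in AKI. The offsets ended its pFUS_UC call and left its UC call. The chaperone sum without Psmg4 was not formed, so the sum alone does not show a rise across the class. By gene, 5 of 7 chaperones rose and none fell in pFUS_UC against AKI, and 6 rose and 1 fell in UC against AKI. With the offsets 2 rose and 1 fell in pFUS_UC against AKI, and 3 rose and none fell in UC against AKI. The inducible sum was 29.4 ± 2.74 FPKM in pFUS_UC, 35.3 ± 9.66 FPKM in UC and 29.99 ± 11.6 FPKM in AKI.

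**Figure D5:**
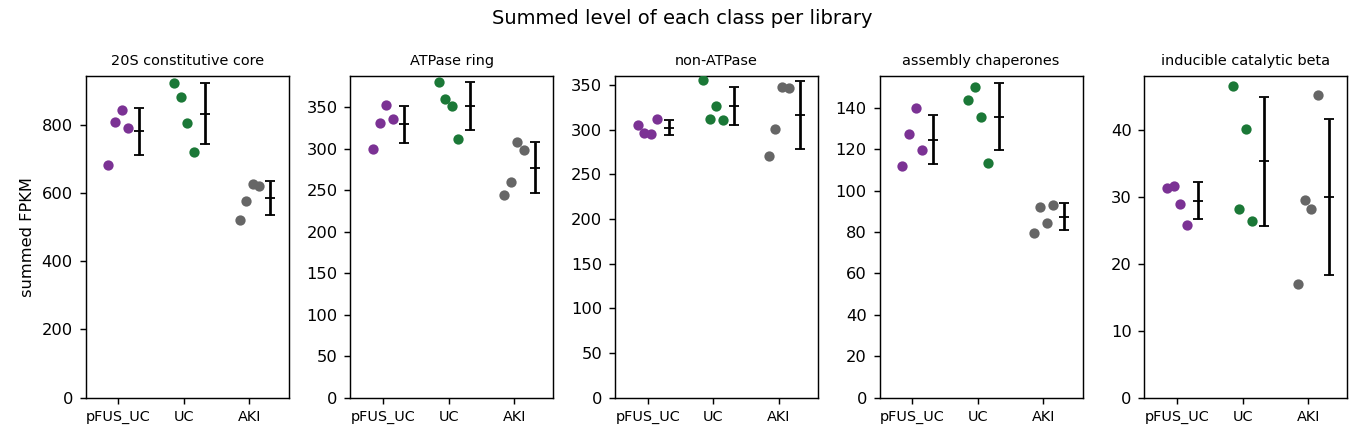
Summed FPKM of each class in each library (points) with the mean ± SD of each group (bars; n = 4), from the constitutive core on the left to the inducible genes on the right. The core and chaperone sums of pFUS_UC and UC lie above all AKI sums, the lowest being 681 against an AKI maximum of 626 FPKM for the core, while the non-ATPase and inducible sums overlap.

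Levels in FPKM differed widely among subunits that the finished particle holds in equal number. Psmb4 and Psmb6 had the highest mean over all libraries, with 114 and 114 FPKM in pFUS_UC, 126 and 129 FPKM in UC and 90.0 and 71.6 FPKM in AKI. Psmc5 and Psmb5 followed with 101 and 98.5 FPKM in pFUS_UC, 107 and 109.6 FPKM in UC and 75.8 and 67.4 FPKM in AKI, within an SD of each other. Psmd1 had the lowest mean of the 17 regulatory particle genes, with 4.67 ± 1.29 FPKM in pFUS_UC, 4.48 ± 0.401 FPKM in UC and 10.05 ± 1.26 FPKM in AKI. The inducible Psmb10 had 20.9 ± 3.004 FPKM in pFUS_UC, 28.6 ± 8.75 FPKM in UC and 21.4 ± 7.28 FPKM in AKI, and these means lay above those of its constitutive partner Psmb7, which had 13.5 ± 2.12, 11.98 ± 1.62 and 18.9 ± 1.67 FPKM in the same order of groups; in AKI replicate 1 alone Psmb10 was below, with 73.1 FPKM per 100 FPKM of Psmb7. The inducible Psmb8 and Psmb9 were at 4.56 to 5.65 and 2.18 to 3.54 FPKM in the group means. FPKM depends on the listed gene length, which is the same in every library.

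Ultrasound added to the cells left no member past the threshold. The smallest edgeR adjusted p among members in pFUS_UC against UC was 0.601, and log2 fold changes ran from -0.45 for Psmb10 to 0.46 for Psmc3ip. At an unadjusted p under 0.05 there were 1 member and 1342 genes (7.92%), and DESeq2 called 35 genes and 0 members. That member was Psmd13, a lid subunit, with -0.32 (95% interval -0.61 to -0.04). It and Psmc1 (-0.13, interval -0.32 to 0.06) were the members whose pFUS_UC values all lay below their UC values. The share of all genes with such a separation was not counted, so nothing is concluded from it. For the catalytic genes the interval was -0.51 to 0.16 for Psmb6, -0.47 to 0.17 for Psmb5 and -0.11 to 0.47 for Psmb7. For the inducible genes it was wider, -0.31 to 0.94 for Psmb8, -0.28 to 1.10 for Psmb9 and -1.005 to 0.11 for Psmb10. These intervals do not show that the groups are alike.

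Other lists of genes that work with the proteasome are read against the same background, 21.9% of all genes higher and 22.1% lower in pFUS_UC against AKI, and 24.1% higher and 24.3% lower in UC against AKI. Of 11 partner genes of the particle, 3 rose and 2 fell in pFUS_UC against AKI, and 3 rose and 3 fell in UC against AKI, shares near that background. Sem1, a small lid subunit outside the naming rule, had 104 ± 18.9 CPM in pFUS_UC, 114 ± 13.3 CPM in UC and 40.1 ± 4.48 CPM in AKI. It rose by 1.38 ± 0.14 and 1.51 ± 0.14 (edgeR adjusted p = 5.5e-05 in pFUS_UC against AKI). Pomp, which matures the beta rings, rose by 0.83 and 1.02, and Ube3c, a ubiquitin ligase on the particle, fell by 0.98 and 1.08. Of 13 shuttle and p97 genes, which bring ubiquitylated proteins to the proteasome, 1 rose and 10 fell in each comparison with AKI. Rad23b, a shuttle, and Nploc4, an adaptor of p97, fell by 0.73 and 0.81 in pFUS_UC and by 0.86 and 0.70 in UC. With the offsets 2 rose and 8 fell in pFUS_UC against AKI, and 2 rose and 6 fell in UC against AKI, where 17.2% and 20.3% of all genes were lower. Vcp, the p97 ATPase itself, fell by 0.72 and 0.55, with 86.0 ± 22.05 CPM in pFUS_UC, 97.3 ± 14.1 CPM in UC and 142 ± 24.3 CPM in AKI; it is named here after its values were seen. The UC call of Vcp was lost with the offsets (-0.33, adjusted p = 0.123) and without AKI replicate 3 or 4 or UC replicate 2 (-0.51 to -0.46, adjusted p = 0.0574 to 0.0774).

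Among 7 genes of proteasome transcription, none rose, 4 fell in pFUS_UC against AKI and 2 fell in UC against AKI, the last a share near the background. With the offsets 1 rose and 3 fell in pFUS_UC against AKI, and 2 rose and 2 fell in UC against AKI. Nfe2l1 had 176 ± 29.5 CPM in pFUS_UC, 152 ± 51.1 CPM in UC and 295 ± 19.2 CPM in AKI. It fell by 0.75 ± 0.20 (edgeR adjusted p = 0.00962) and 0.96 ± 0.20 (edgeR adjusted p = 0.00191), and with the offsets by 0.42 (adjusted p = 0.0828) and 0.66 (adjusted p = 0.0112). Its partner Mafk fell by 0.72 and 0.67. Of 6 ubiquitin and E1 genes, Rps27a, which makes ubiquitin fused to a ribosomal protein, rose by 1.76 and 2.23 (ribosomal protein genes have processed copies, so its reads may be split), and the E1 gene Uba1 fell by 0.65 and 0.71. Of 13 class I presentation genes, 1 rose and 1 fell in each comparison: H2-K1, a class I heavy chain, rose by 0.75 and 0.84, and Erap1, which trims peptides, fell by 0.80 and 0.93. For this list the offsets gave 1 higher and 3 lower in pFUS_UC against AKI, and 1 higher and 2 lower in UC against AKI. The pFUS_UC call of H2-K1 (edgeR adjusted p = 0.0267) ended when pFUS_UC replicate 3 or 4, or AKI replicate 1 or 4, was left out (0.53 to 0.71, adjusted p = 0.0644 to 0.0957) and with the replicate block (0.72, adjusted p = 0.0526). The UC call of H2-K1 (edgeR adjusted p = 0.0136) ended without UC replicates 1 and 2 together (0.65, adjusted p = 0.123). In pFUS_UC against UC no gene of these lists was called.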

How the data were processed

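Bulk RNA was sequenced from 12 kidney samples in 3 groups of 4, grouped by sample title. Raw gene counts were deposited by the authors, made with HTSeq on GRCm39 (mm39) per the submitters' processing notes, which also name DESeq2; no version, aligner or strand setting is stated there. The deposited FPKM table equals the authors' counts divided by gene length and by 1 scaled total per library, for 100% of genes within 0.1%. Levels are those FPKM values or CPM scaled by TMM.

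Tests used edgeR 4.0.16 in R 4.3.3: filterByExpr (minimum count 10, minimum total 15), TMM, and a quasi-likelihood F-test on all 12 samples without a replicate block (9 residual degrees of freedom), adjusted by Benjamini-Hochberg over 16947 genes at 0.05. The SE was obtained as |log2 fold change| over the square root of F, and 95% intervals use the t distribution with these 9 degrees of freedom. The script was tested on simulated data. Offsets per library were natural splines (5 degrees of freedom) of log2 CPM deviations on gene length and transcript GC content; GC came from a GRCm38 annotation matched by gene identifier (98.1% of tested genes, all 51 members). Alternatives were DESeq2 1.42.0 and its size factors, no filter, 1 CPM in 4 samples, only the groups compared, a replicate block, leaving out libraries, no mitochondrial genes, a length offset alone, and limma 3.58.1 on log2(FPKM + 1 or + 0.1), with a filter of 0.1 FPKM in 4 samples or none.

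Library totals were 17.3 to 25.2 M counts. No libraries were identical. The members, their classes, the other gene lists and the rule for named genes were chosen with earlier results of these data known. Values in every sample are given for the catalytic and inducible beta genes, Psme1 to Psme4 and Psmf1, and in each other class for the 2 members with the smallest p in each comparison with AKI; of other lists, up to 3 genes with the smallest p are named. Some genes that this rule names are not reported here. Of the 51 members, 25 overlap another annotated gene, 20 of them on the opposite strand, and reads from such pairs cannot be told apart where counting ignored strand.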

Additional observations from a re-analysis of the deposited data

Results flagged for a closer look

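In 4 of 147 groups of 4 libraries, 1 library stood far from the other 3 of its group (gap to the nearest over the group's range above Dixon's 95% critical value); chance flags about 1 in 20 such groups. Psme1 had 58.4 CPM in AKI replicate 1 and 85.8 to 89.8 CPM in the other AKI libraries. Psma6 was also low in AKI replicate 1, with 69.5 CPM against 77.4 to 79.0 CPM. Psma1 had 58.4 CPM in AKI replicate 4 and 63.1 to 63.3 CPM in the other AKI libraries. Psmb5 had 73.8 CPM in UC replicate 4 and 104.9 to 110.0 CPM in the other UC libraries.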

How the results depend on the processing

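Of 26 members called in pFUS_UC against AKI, 8 were called under every alternative run: Psma4, Psma7, Psmb6, Psmb7, Psmd1, Psme3, Psme4 and Psmg3. Of 26 called in UC against AKI, 11 were: Psma4, Psma7, Psmb1, Psmb4, Psmb6, Psmb7, Psmd1, Psmd4, Psme3, Psmg3 and Psmg4. With a length offset alone, 15 members were called in pFUS_UC against AKI and 17 in UC against AKI; without UC replicates 1 and 2 together, 15 were called in UC against AKI. Leaving out 1 replicate at a time gave 18 to 26 members in pFUS_UC against AKI, 23 to 27 in UC against AKI and 0 in pFUS_UC against UC. The replicate block gave 22, 25 and 0 members in these comparisons, and 2 genes of the whole table in pFUS_UC against UC. Same-numbered samples did not deviate together (correlations -0.165 to 0.147), so the block pairs samples by number only. In pFUS_UC against UC the whole table gave 35 calls with DESeq2 and 13 without a filter. Directions turned under the length and GC offsets for these values, each called with or without them. In UC against AKI the values were then -0.16 for Psmc6, -0.15 for Psmd10, -0.88 for B2m, 0.24 for Ecpas and 0.36 for Hsf1. In pFUS_UC against AKI they were -0.41 for Psmd10, 0.27 for Psmd3, 0.29 for Psmf1, -0.67 for B2m, 0.20 for Ecpas, 0.34 for Hsf1 and 0.028 for Faf2. Ecpas also turned with the length offset alone, to 0.28 in UC and 0.26 in pFUS_UC. The cause was not tested. Members with no call changed sign in 46, 30 and 93 pairs of member and setting in pFUS_UC against AKI, UC against AKI and pFUS_UC against UC. With 4 samples per group, the median SE of a member in pFUS_UC against UC was 0.12 on the log2 scale.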
